A study of Mus musculus with 6 samples.

Results

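Cytoplasmic ribosomal proteins are the protein part of the ribosome that translates messages in the cytosol. The 69 genes described here are those whose symbol names a large or small subunit ribosomal protein (Rpl or Rps with a number, Rplp0, Rplp1, Rplp2 or Rpsa) and stands alone on a probe set of the array, out of 22180 genes with such a probe set. S6 kinase genes and names marked as pseudogenes were left out, and where a gene had several probe sets that with the highest mean stood for it. The mice were outbred CD1 males, 9 weeks old, housed for 2 weeks and given no inflammatory insult. The enriched environment (EE) was a larger enclosure with a wheel, a nest house, a tunnel, ample nesting material and a deep layer of wood chips, and the standard environment (SE) was a smaller cage, likewise with wood chips and nesting material. RNA was taken from the whole blood of 3 EE animals and 3 SE animals, hybridized to 1 array per animal and expressed as log2 values after robust multiarray averaging. Mice were kept in groups of 6, and which of the arrayed mice shared an enclosure is not given in the sources used here. The comparison asks how blood expression of these genes differed between EE and SE mice.

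A ribosome is built of a large subunit, which forms peptide bonds, and a small subunit, which reads the message. The P proteins form a stalk on the large subunit that recruits elongation factors. Cells make these proteins in matched amounts, and their messages share a run of pyrimidines at the very start of the transcript, the terminal oligopyrimidine tract, through which the mTOR kinase and the RNA-binding protein LARP1 control their translation together. In blood, lymphocytes carry many ribosomal protein messages, reticulocytes still hold some from their nucleated precursors, and mature neutrophils hold few. In humans, loss of 1 copy of several of these genes, among them RPS19, RPS24, RPS26 and RPS28, causes Diamond-Blackfan anaemia, a failure of red cell production.

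Of the 69 genes, 32 encode large subunit proteins, 3 P stalk proteins and 23 small subunit proteins. The other 11 are paralogs, retrogene copies or similarly named genes that the symbol rule takes in, such as Rps19bp1, a protein that binds RPS19. A mean of at least 100 on the linear scale (a log2 value of 6.64), the minimum used in the study's methods, was reached by 39 genes, which comprise 20 large subunit, 2 P stalk and 16 small subunit genes and Rpl6l, a pseudogene in the RefSeq table. Rps25 (6.65) and Rps23 (6.68) lay just inside the minimum, and Rps27 (6.51) and Rpl7l1 (6.45) just outside. The 30 genes below it comprise 20 core ribosomal proteins, among them Rpl5 and Rpl11, which in free form bind MDM2 and so stabilize p53, and 10 of the 11 relatives. Paralogs known from particular tissues lay below it, with means of 4.82 for Rpl3l, of heart and skeletal muscle, and of 2.69 and 5.69 for Rpl10l and Rpl39l, both of the testis. Below it too were Rpl22 (6.39), which in mice is needed by developing T cells, its paralog Rpl22l1 (6.27), and Rps27l (6.16), a p53-responsive paralog of Rps27. Core ribosomal proteins also lay far below the minimum, among them Rpl17 (3.60), Rplp2 (4.11) and Rps29 (4.12). A value under the minimum thus does not show that a message is absent from blood.

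Ribosomal protein genes are known for their many processed copies across the genome. In the table, probe sets of a chromosome follow each other in the order of their IDs, and 99.5% of all probe sets named for 1 gene and with clear neighbours lay among IDs of that gene's own chromosome. Among the 39 ribosomal protein genes past the minimum, the probe set with the highest mean lay among IDs of another chromosome for 19 genes, on the gene's own chromosome for 17 and among mixed neighbours for 3. Of the 36 with clear neighbours this made 52.8%, against 1.02% of 5467 genes of the whole array chosen by the same highest mean and minimum. Over probe sets not chosen by level, 29 of the 97 ribosomal protein probe sets with clear neighbours (29.9%) lay among IDs of another chromosome, against 0.488% of all named probe sets. For 15 of the 19 genes a further probe set lay on the gene's own chromosome, and for 12 of these it stayed under the minimum. For Rps28, encoded on chromosome 17, the chosen probe set averaged 10.09 and lay among those of chromosome 5, whereas the probe set on chromosome 17 averaged 3.95. For Rps3a1, encoded on chromosome 3, the chosen probe set averaged 8.41 among those of chromosome 13, and the probe set on chromosome 3 averaged 4.85. Whether such a probe set reads the gene's own message, a copy or both was not tested, so each value below is that of a probe set named for the gene.

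**Figure D1:**
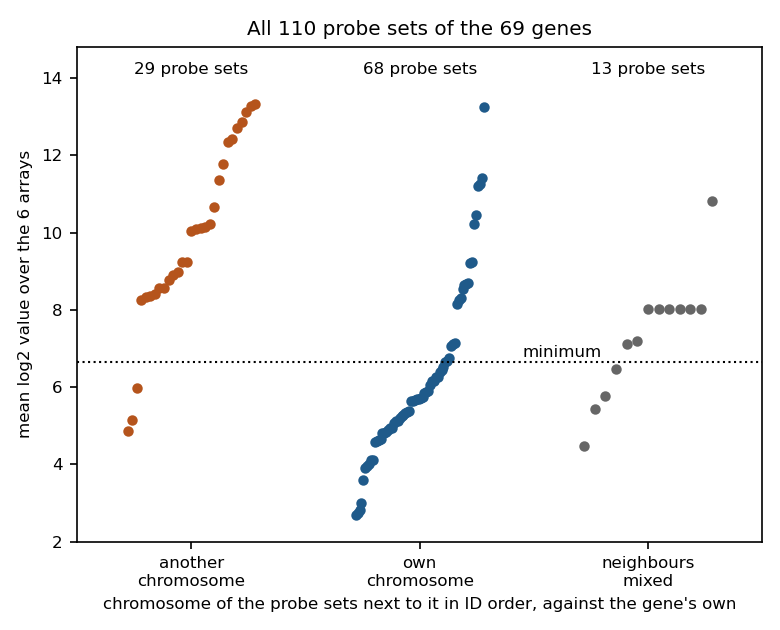
Mean log2 value over the 6 arrays (y axis) of each of the 110 probe sets named for 1 of the 69 genes, grouped by whether its neighbours in ID order lie on another chromosome than the gene, on the same chromosome or are mixed (x axis). The dotted minimum of 6.64 was passed by 26 of 29 probe sets among IDs of another chromosome, 21 of 68 on the own chromosome and 9 of 13 with mixed neighbours, with 7 probe sets that repeat another of their gene included.

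The start of the transcript carries the shared tract, so the stretch around the RefSeq start site (GRCm38.p6) is shown for some genes of the results, with 40 bases before the start and 20 from it. Capitals mark a tract, defined as a C followed only by C or T, at least 8 bases long and wholly within 25 bases of the start on the transcribed strand. Where a run of pyrimidines crosses that limit, only the part inside it was searched. A run so marked need not begin at the first base of the transcript. That of Rpl19 ends before the annotated start, and that of Rps26 begins after it. The counts below are therefore of pyrimidine runs near the start, not of proven terminal tracts. Of the 58 genes other than the relatives, 45 matched the RefSeq promoter table.
Rps26, chr10:128626487-128626546, minus strand: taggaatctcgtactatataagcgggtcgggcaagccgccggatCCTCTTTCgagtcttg
Rps24, chr14:24490638-24490697, plus strand: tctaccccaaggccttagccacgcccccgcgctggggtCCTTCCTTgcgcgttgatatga
Rpl19, chr11:98026884-98026943, plus strand: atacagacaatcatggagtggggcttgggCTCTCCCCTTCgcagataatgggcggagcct
Rpl15, chr14:18270967-18271026, minus strand: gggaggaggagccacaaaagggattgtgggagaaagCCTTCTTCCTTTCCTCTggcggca
Rpl14, chr9:120571477-120571536, plus strand: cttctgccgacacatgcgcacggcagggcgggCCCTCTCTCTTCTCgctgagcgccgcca
Rps6, chr4:86857348-86857407, minus strand: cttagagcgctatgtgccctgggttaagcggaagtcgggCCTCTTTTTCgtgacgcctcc
Rps9, chr7:3704001-3704060, plus strand: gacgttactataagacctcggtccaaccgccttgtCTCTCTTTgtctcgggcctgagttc
Rpl38, chr11:114668540-114668599, plus strand: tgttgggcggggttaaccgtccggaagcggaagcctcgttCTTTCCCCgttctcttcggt
RefSeq gives a second start for Rpl19 and for Rps24, and no such tract lies around it, nor around the start of Rps28, Rps3a1, Rpl9 and Rps13. Before the second start of Rps24 lies a longer pyrimidine run, mostly outside the 25 bases searched. Other genes named in the results are not shown, among them Rpsa, Rpl41, Rplp0 and Rps3 without a tract and Rps10, Rps12, Rps25 and Rpl4 with a tract.
Rpl19 second start, chr11:98026670-98026729, plus strand: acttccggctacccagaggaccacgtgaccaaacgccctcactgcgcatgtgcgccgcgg
Rps24 second start, chr14:24490713-24490772, plus strand: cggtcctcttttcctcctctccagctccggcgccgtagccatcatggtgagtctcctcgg
Rps28, chr17:33824543-33824602, minus strand: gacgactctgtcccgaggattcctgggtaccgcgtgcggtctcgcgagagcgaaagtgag
Rps3a1, chr3:86142649-86142708, minus strand: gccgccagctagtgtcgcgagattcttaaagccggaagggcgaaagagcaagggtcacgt
Rpl9, chr5:65391412-65391471, minus strand: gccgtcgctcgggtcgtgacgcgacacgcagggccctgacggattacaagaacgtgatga
Rps13, chr7:116334171-116334230, minus strand: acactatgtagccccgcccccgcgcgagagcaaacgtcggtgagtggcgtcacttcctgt
With every listed start of a gene searched, a tract was found at 25 of the 45 genes (55.6%) and at 17 of the 30 that passed the minimum (56.7%), against 17.7% of 27025 genes in the whole table. Counted by start, these were 26 of 52 starts (50%) and 17 of 35 (48.6%), against 15.5% of all starts. The letters CCGGAAG on either strand, a core that ETS factors such as GABP recognize, lay within the window of 300 bases (250 before the start and 50 from it) at 21 of the 45 genes (46.7%), against 9.93% of all genes. Their complement, CTTCCGG, can overlap the end of a tract. The YY1 core AAGATGGC, on either strand, was found at 2 of the 45 genes (4.44%), against 3.19% of all genes. These matches describe the letters around the annotated start, which may differ from the start used in blood.

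Most ribosomal protein genes had slightly higher mean values in EE mice than in SE mice, and few of these differences were larger than the spread between mice. Of the 39 genes, 31 had a positive log2 fold change (EE minus SE), against 41.8% of all 6154 probe sets tested, and the median was 0.14 for these genes and -0.03 for all probe sets. By limma's moderated test, 1 gene was higher (Rps28) and 1 was lower (Rps3a1) at an unadjusted p under 0.05. Over all probe sets 1.46% were called higher and 3.14% lower, so both counts are near the background. That split over all probe sets depended on the scaling, with 2.94% higher and 1.84% lower when EE mouse 3 was rescaled to the other arrays, and 2.21% higher and 2.58% lower after quantile normalization. After limma's Benjamini-Hochberg adjustment the lowest p of these genes was 0.805, and none of the 6154 probe sets passed 0.05, of which 283 had an unadjusted p under 0.05. The study's methods ask for a fold past 2 as well, and by that joint rule 0 ribosomal protein genes and 0.195% of all probe sets were called. In bulk blood, fewer cells of a type and less RNA per cell cannot be told apart.

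**Figure D2:**
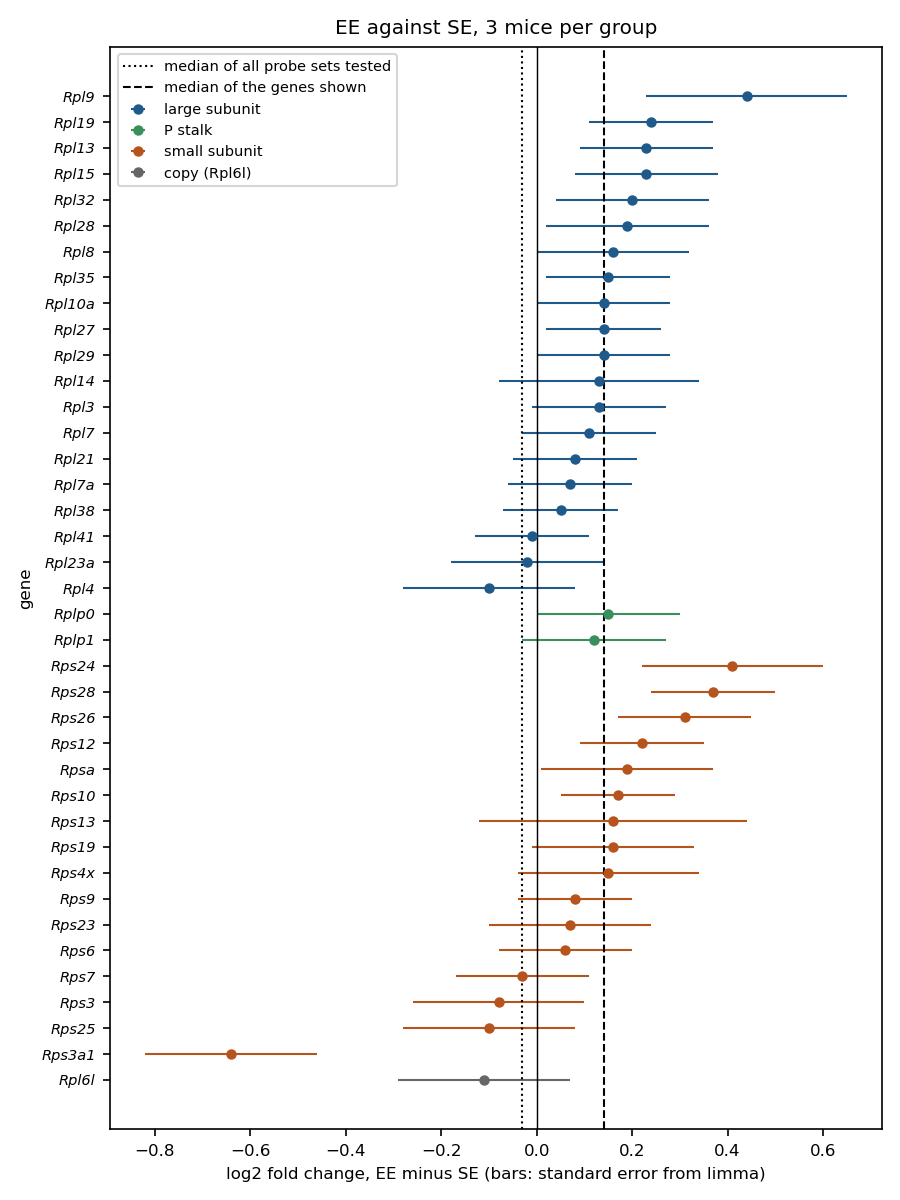
Log2 fold change of each ribosomal protein gene past the minimum (x axis, EE minus SE, bars give the standard error from limma, 3 mice per group), with genes by subunit down the y axis. Most points lie to the right of 0 at around the dashed median of 0.14, and Rps3a1 stands alone at -0.64.

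Rps28 encodes a small subunit protein beside the channel through which the message leaves. Its log2 values were 10.27, 10.26 and 10.29 in EE mice 1, 2 and 3, against 9.73, 9.93 and 10.04 in SE mice 1, 2 and 3. The EE mice lay within 0.03 of each other and above every SE mouse. EE mice averaged 10.28 ± 0.02 and SE mice 9.90 ± 0.16 (SD, n = 3 each), a log2 fold change of 0.37 with a standard error of 0.13 (limma, unadjusted p = 0.0222, adjusted p = 0.946). The call was lost on leaving out EE mouse 1 (limma, unadjusted p = 0.0532), EE mouse 2 (0.0547), SE mouse 1 (0.0797) or SE mouse 2 (0.0572), and remained without EE mouse 3 or SE mouse 3. The Rps28 probe set on the gene's own chromosome did not reach the minimum. It gave 4.08, 4.02 and 3.91 in EE mice 1, 2 and 3, against 3.80, 3.94 and 3.97 in SE mice 1, 2 and 3. There the groups overlapped.

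Rps3a1, which encodes the small subunit protein also known as eS1, went the other way from most of the genes. It lay at 7.86, 8.15 and 8.28 in EE mice 1, 2 and 3, against 8.83, 8.44 and 8.92 in SE mice 1, 2 and 3. Every EE value was below every SE value, although EE mouse 3 and SE mouse 2 were close. EE mice averaged 8.09 ± 0.22 and SE mice 8.73 ± 0.26 (SD, n = 3 each), a log2 fold change of -0.64 with a standard error of 0.18 (limma, unadjusted p = 0.0079, adjusted p = 0.805), or a fold of 0.644. The unadjusted p stayed between 0.00428 and 0.0334 with each mouse left out in turn. RefSeq lists Rps3a2 and Rps3a3 as pseudogenes on other chromosomes, Rps3a3 on chromosome 13, among whose IDs the chosen probe set lies. The probe set on the gene's own chromosome, which did not reach the minimum, gave 4.71, 5.0 and 4.86 in EE mice 1, 2 and 3, against 5.19, 4.67 and 4.68 in SE mice 1, 2 and 3, and there the groups overlapped.

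Among the other small subunit genes, Rps26, whose protein touches the message near the exit channel, came next by p. It lay at 10.82, 10.95 and 10.68 in EE mice 1, 2 and 3, against 10.41, 10.64 and 10.48 in SE mice 1, 2 and 3, with no overlap, a log2 fold change of 0.31 and a standard error of 0.14 (limma, unadjusted p = 0.0533). The Rps26 probe set on the gene's own chromosome averaged 2.83, under the minimum, and there the groups overlapped. Rps24, a gene of Diamond-Blackfan anaemia in humans, lay at 7.76, 7.06 and 7.17 in EE mice 1, 2 and 3, against 6.88, 6.99 and 6.88 in SE mice 1, 2 and 3. Only EE mouse 1 stood clearly above the SE mice, and the log2 fold change was 0.41 with a standard error of 0.19 (limma, unadjusted p = 0.0677). The Rps24 probe set on the gene's own chromosome averaged 6.17, under the minimum, and there too the groups overlapped. Rps12, Rps10 and Rps9 also had no overlap between EE and SE mice, with log2 fold changes of 0.22, 0.17 and 0.08 and unadjusted p from limma of 0.136, 0.198 and 0.497. For Rps12 the highest value was that of EE mouse 3 (9.01), with 8.70 and 8.74 in EE mice 1 and 2 and 8.55, 8.61 and 8.62 in SE mice 1, 2 and 3. Rps6, the substrate of S6 kinase downstream of mTOR, lay at 13.26, 13.25 and 12.92 in EE mice 1, 2 and 3, against 13.07, 13.14 and 13.06 in SE mice 1, 2 and 3, so that EE mouse 3 was lowest and EE mice 1 and 2 highest. Of the 16 small subunit genes past the minimum, 12 had a positive log2 fold change, with a median of 0.16.

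Of the 20 large subunit genes, 17 had a positive log2 fold change, with a median of 0.14, and 0 were called in either direction at an unadjusted p under 0.05. Rpl9, a protein near the base of the stalk, had the largest difference, with 8.56, 8.84 and 8.33 in EE mice 1, 2 and 3, against 7.78, 8.18 and 8.46 in SE mice 1, 2 and 3. SE mouse 3 lay within the range of the EE mice, and the log2 fold change was 0.44 with a standard error of 0.21 (limma, unadjusted p = 0.0699). The Rpl9 probe set on the gene's own chromosome averaged 4.64, under the minimum, and there the groups overlapped as well. Rpl19 lay at 11.53, 11.56 and 11.32 in EE mice 1, 2 and 3, against 11.19, 11.28 and 11.22 in SE mice 1, 2 and 3. Among these 20 genes it alone had no overlap. Its log2 fold change was 0.24 with a standard error of 0.13 (limma, unadjusted p = 0.0972). Full separation with EE higher was found for 3.92% of the 6154 probe sets, so 1 gene of 20 is near the background. The second probe set of Rpl19, on the gene's own chromosome, lay at 6.85, 6.86 and 6.82 in EE mice 1, 2 and 3, against 6.70, 6.61 and 6.66 in SE mice 1, 2 and 3. It too had no overlap, with a log2 fold change of 0.19 (unadjusted p = 0.147 from limma). Both P stalk genes past the minimum, Rplp0 and Rplp1, overlapped between the groups and had log2 fold changes of 0.15 and 0.12.

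Negative log2 fold changes were small apart from that of Rps3a1. Those of Rpl6l, Rps25, Rpl4, which lines the tunnel through which the new peptide leaves, and Rps3, at the entry of the message, lay between -0.11 and -0.08 (standard error 0.18 each), with the lowest value in EE mouse 3 for each of the 4. That mouse was the lowest of the 6 for 50.1% of all probe sets tested. Without EE mouse 3 these 4 log2 fold changes were 0.06 for Rpl6l, 0.07 for Rps25, 0.08 for Rpl4 and 0.09 for Rps3. In all, 7 of the 39 genes had every EE value above every SE value (Rpl19, Rps9, Rps10, Rps12, Rps24, Rps26 and Rps28) and 1 had every EE value below (Rps3a1). Over all probe sets tested these shares were 3.92% and 5.75%.

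The 6 mice did not contribute alike. EE mouse 1 had the highest value of the 6 for 14 of the 39 genes and EE mouse 2 for 12, against 25.5% and 19.7% of all probe sets tested. SE mouse 1 had the lowest value for 13 genes (33.3%), against 9.67% of all probe sets, and without it the median log2 fold change was 0.10 for the 39 genes and -0.03 for all probe sets. EE mouse 3 stood apart on the array as a whole. Its mean correlation with the other arrays over all probe sets tested was 0.932, against 0.956 to 0.965 for the others, and it was the lowest of the 6 for 50.1% of all probe sets. For the ribosomal protein genes it was the lowest for 11 (28.2%) and the highest for 6 (15.4%, against 12.9% of all probe sets). Relative to the mean of the SE mice, the median ribosomal protein gene stood at 0.18, 0.14 and 0.01 in EE mice 1, 2 and 3, against -0.04, 0.03 and 0.01 in SE mice 1, 2 and 3. By this median EE mice 1 and 2 lay above the SE mice and EE mouse 3 among them. Over all probe sets tested the median stood at 0.07, 0.04 and -0.18 in EE mice 1, 2 and 3, against 0.02, 0.01 and -0.02 in SE mice 1, 2 and 3. The place of EE mouse 3 among the SE mice was thus read on an array that lay low as a whole. Whether EE mouse 3 shares the higher values of EE mice 1 and 2 was not tested.

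**Figure D3:**
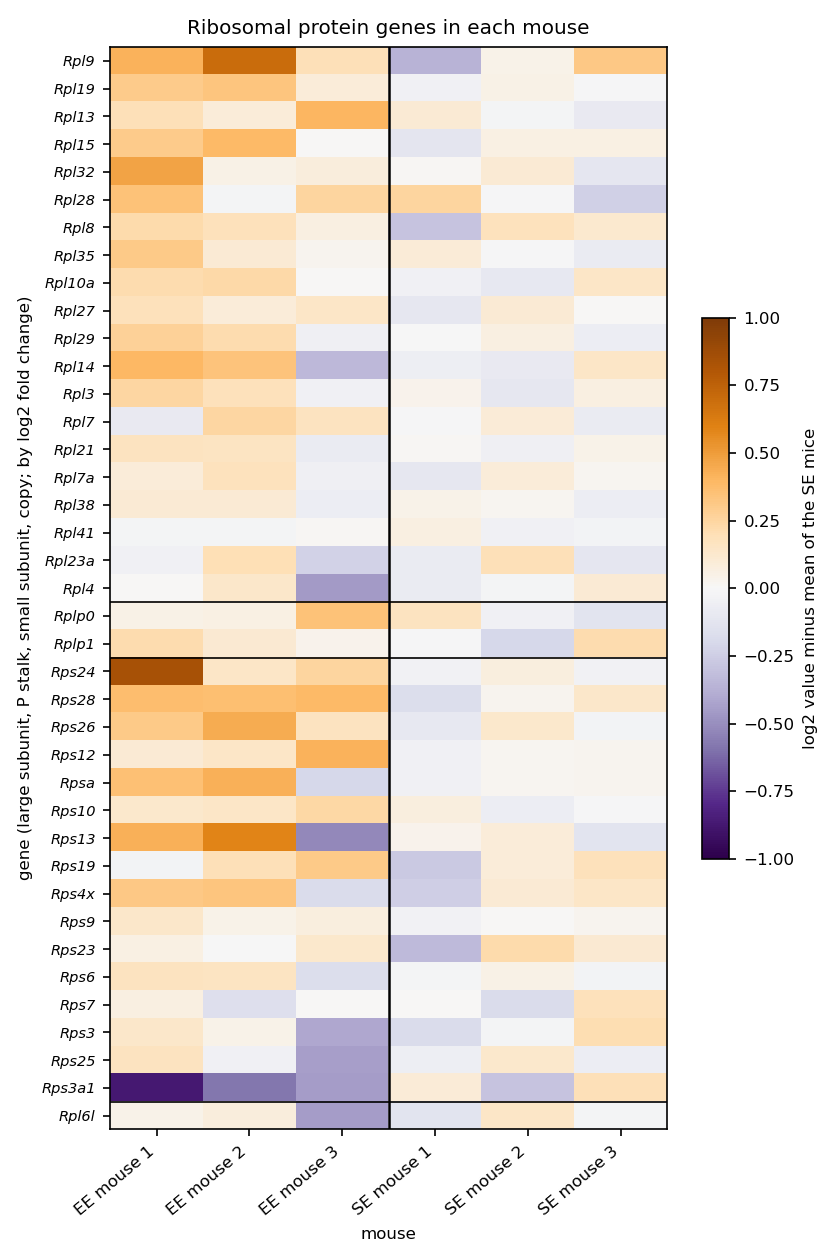
Log2 value of each of the 39 ribosomal protein genes minus the mean of the SE mice (colour), for each mouse (columns, EE mice left of the line) and gene (rows, by subunit and log2 fold change). Orange prevails in EE mice 1 and 2, EE mouse 3 is mixed with its lowest value at Rps13, and Rps3a1 is purple in all 3 EE mice.

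A count chosen after these values were seen describes the same values in another way and adds no separate support. In EE mice 1 and 2, 22 of the 39 genes lay above all SE mice (12 of the large and 10 of the small subunit), against 21.9% of all probe sets tested. Of these 22, the probe sets lay among IDs of another chromosome for 11, on the own chromosome for 9 and among mixed neighbours for 2. The gap between EE mouse 3 and EE mice 1 and 2 was widest downward for Rps13, Rpl14 and Rpsa, with differences of -1.03, -0.70 and -0.60 from the mean of the other 2 EE mice. Rps13, of the small subunit, lay at 8.59, 8.76 and 7.65 in EE mice 1, 2 and 3, against 8.20, 8.26 and 8.04 in SE mice 1, 2 and 3, the widest range of the 39 genes at 1.11. Rpsa, a small subunit protein also described as a laminin receptor precursor, lay at 9.25, 9.32 and 8.69 in EE mice 1, 2 and 3, against 8.85, 8.91 and 8.92 in SE mice 1, 2 and 3. In both genes EE mouse 3 was the lowest of the 6 and EE mice 1 and 2 were the highest.

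Without EE mouse 3, limma called 9 of the 39 genes higher and 1 lower at an unadjusted p under 0.05, and 36 had a positive log2 fold change. All probe sets moved too, with 6.68% called higher, 4.84% lower and 63.6% positive, and the lowest adjusted p among the 39 genes was 0.315 (limma). The median was 0.16 for the ribosomal protein genes and 0.06 for all probe sets. Besides Rps28, the genes called higher were Rpl9, Rpl14, Rpl15, Rpl19, Rpl29, Rps13, Rps26 and Rpsa. Rps13 had a log2 fold change of 0.51 with a standard error of 0.12 (limma, unadjusted p = 0.00419) and Rpsa of 0.39 with a standard error of 0.09 (limma, unadjusted p = 0.00487). Leaving out EE mouse 1 instead lowered the median to 0.07, with 0 genes called higher and 29 of 39 positive, while over all probe sets 1.02% were called higher, 34.2% were positive and the median was -0.08. The ribosomal protein median exceeded that of all probe sets by 0.16 in that fit, by 0.10 without EE mouse 3 and by 0.18 with all mice.

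On the log2 scale the median SD was 0.171 among EE mice and 0.112 among SE mice, against 0.220 and 0.133 over all probe sets tested, and the SD was larger in EE mice for 26 of the 39 genes (66.7%, against 67.6% of all probe sets). The chosen probe set of Rpl41, which encodes the smallest ribosomal protein, spanned 0.11 from its lowest to its highest mouse, at 13.31, 13.31 and 13.34 in EE mice 1, 2 and 3, against 13.40, 13.29 and 13.30 in SE mice 1, 2 and 3. Its mean, 13.33, was the highest of the 39, and whether the array's upper limit bears on that narrow range was not tested. An Rpl41 probe set on the gene's own chromosome was as high and as even, with a mean of 13.24. It lay at 13.24, 13.22 and 13.28 in EE mice 1, 2 and 3, against 13.27, 13.20 and 13.24 in SE mice 1, 2 and 3. Another on that chromosome averaged 7.07. It lay at 6.83, 6.80 and 7.28 in EE mice 1, 2 and 3, against 7.20, 7.23 and 7.05 in SE mice 1, 2 and 3, so that the groups overlapped over a wider range. Rpl38 and Rps9 each spanned 0.17. Over the 741 pairs of the 39 genes, the median Pearson correlation across the 6 mice was 0.31, and 69% of pairs were above 0. Rpl19 (r = 0.96), Rpl15 (0.95) and Rpl29 (0.92) followed the median of the 39 genes most closely, and Rps3a1 (-0.85), Rpl41 (-0.53) and Rplp0 (-0.20) least. These correlations rest on 6 points that share the groups and the arrays, and serve as a description.

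Markers of blood cell types moved between these mice as well. Of the marker genes, 15 of 20 for B cells, 15 of 20 for T cells, 12 of 18 for neutrophils, 11 of 16 for monocytes, 15 of 18 for platelets, 5 of 10 for natural killer cells and 13 of 22 for red cells and reticulocytes passed the minimum. The median T cell marker, relative to the mean of the SE mice, was 0.46, 0.38 and -0.34 in EE mice 1, 2 and 3, against 0.19, -0.17 and 0.00 in SE mice 1, 2 and 3. As with the ribosomal protein genes, EE mice 1 and 2 were the highest, but here EE mouse 3 was the lowest of the 6, and 13 of the 15 T cell markers lay above all SE mice in EE mice 1 and 2. B cell markers stood at 0.01, 0.05 and -0.79 in EE mice 1, 2 and 3, against -0.31, 0.14 and 0.19 in SE mice 1, 2 and 3, with EE mouse 3 lowest for 15 of 15. That mouse was the lowest for 50.1% of all probe sets tested, with a median of -0.18 over them. Neutrophil markers were between 0.54 and 0.85 in EE mice, against -0.25 to 0.23 in SE mice, and 10 of 12 were higher at an unadjusted p under 0.05. Red cell and reticulocyte markers were between -0.81 and -0.44 in EE mice, against -0.15 to 0.23 in SE mice, and 11 of 13 were lower at that threshold. The monocyte, platelet and natural killer cell lists had median log2 fold changes of 0.20, 0.31 and 0.03, with 1 monocyte marker higher and no other call. For the T cell and B cell lists the medians were 0.09 and -0.23, and for the neutrophil and red cell lists 0.63 and -0.70. The median log2 fold change of the ribosomal protein genes was 0.14. The part of any cell type in the ribosomal protein values was not tested.

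**Figure D4:**
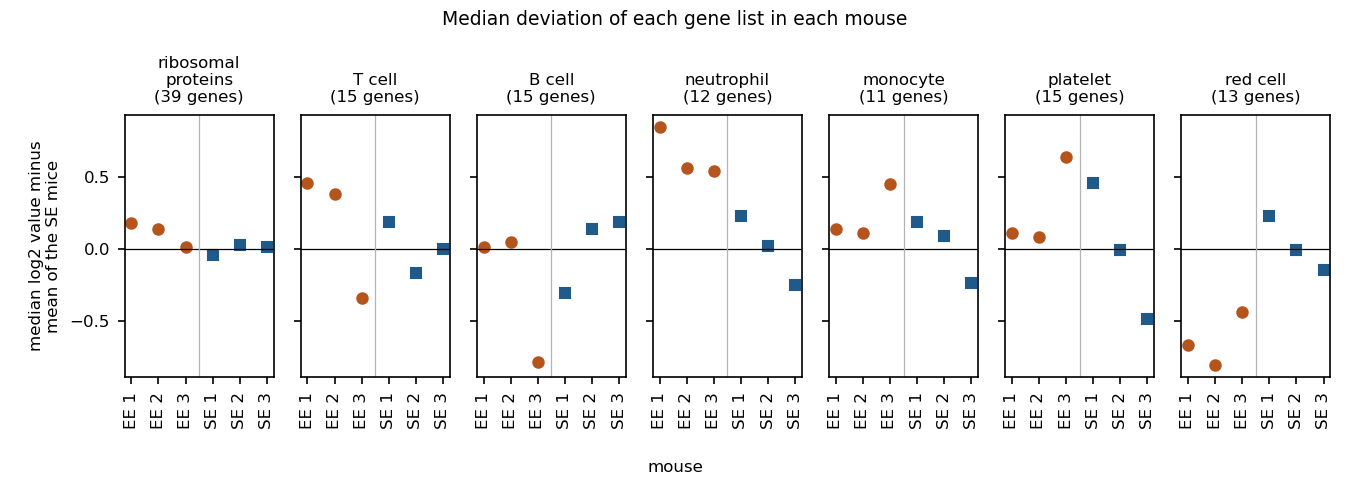
Median gene of each list, as its log2 value less the SE mean (y axis), for each mouse (x axis, EE mice as circles left of the line, SE mice as squares). Ribosomal proteins span -0.04 to 0.18, a narrower range than any of the 6 cell type lists shown.

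Genes that work with or on the ribosome had few calls. Fau, whose product includes the small subunit protein S30, is the only gene past the minimum of 4 further ribosome components, and it lay at 11.88, 11.96 and 11.56 in EE mice 1, 2 and 3, against 11.41, 11.69 and 11.55 in SE mice 1, 2 and 3. Its log2 fold change was 0.25 with a standard error of 0.15 (limma, unadjusted p = 0.143), and EE mouse 3 lay among the SE mice. Of 19 measured translation factors and other genes with terminal oligopyrimidine messages, 10 had a positive log2 fold change and the median was 0.01. The elongation factors Eef1a1 and Eef2 had log2 fold changes of 0.07 and -0.06 (standard errors 0.13 and 0.14). In this list 1 gene was lower and 0 were higher at an unadjusted p under 0.05, Eef1d, a nucleotide exchange subunit of elongation factor 1, with means of 6.91 in EE mice and 7.27 in SE mice and a log2 fold change of -0.36 with a standard error of 0.13 (limma, unadjusted p = 0.0226).
Of 14 other initiation factors, 6 had a positive log2 fold change and 1 was lower at that threshold, Eif5, which triggers GTP hydrolysis at the start codon. It lay at 10.83, 10.83 and 11.01 in EE mice 1, 2 and 3, against 11.30, 11.56 and 11.32 in SE mice 1, 2 and 3, with no overlap, a log2 fold change of -0.50 and a standard error of 0.13 (limma, unadjusted p = 0.00583, adjusted p = 0.763). Of 13 regulators of these messages and of ribosomal protein S6, 0 were called, and Mtor (-0.01) and Larp1 (0.02) had log2 fold changes near 0 (standard errors 0.14 and 0.15). Of 19 ribosome assembly and RNA polymerase I genes, 6 had a positive log2 fold change, the median was -0.06 and 0 were called. EE mouse 3 had the lowest value for 15 of these 19 genes, against 50.1% of all probe sets tested. The median assembly gene, relative to the mean of the SE mice, stood at 0.10, 0.11 and -0.33 in EE mice 1, 2 and 3, against -0.12, 0.08 and 0.09 in SE mice 1, 2 and 3, so that EE mice 1 and 2 were the highest here too. That of the translation factor list stood at 0.10, 0.15 and -0.20 in EE mice 1, 2 and 3, against -0.06, 0.07 and -0.01 in SE mice 1, 2 and 3, in the same order of EE mice. Over all probe sets tested the median in EE mouse 3 was -0.18. Whether these lists differ from the ribosomal protein genes was not tested.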

How the data were processed

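Whole blood RNA of 6 mice was measured on Affymetrix whole-transcript arrays. The array is Mouse Gene 1.0 ST in the methods and Mouse Gene 2.0 ST in the probe annotation used here. The authors normalized the arrays by RMA (affy), and the deposited values are log2 expression per probe set, 41345 in all. RMA is meant to remove overall differences in signal between arrays, but some remained. The 75th percentile over all probe sets was 6.33 in EE mouse 3, against 6.42 to 6.47 in the other mice. Array values carry no read depth, and the small number of mice limits the precision. The submitters' processing notes name limma without a version, and the genome build is not given in the sources used here.

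Each column of the table was assigned to a mouse through its title. Gene names came from the array annotation, with 23521 probe sets of 1 symbol, 1820 of several and 16004 unnamed, and all 69 member symbols matched RefSeq (GRCm38.p6). Only probe sets with an Entrez ID and a linear mean of at least 100 were tested, 6154 in all. The fit was limma 3.58.1 (R 4.3.3) on the log2 scale, with Benjamini-Hochberg adjustment over all 6154, and the code was tested on simulated data. Of the 110 probe sets of the 69 genes, 7 equal another of the same gene in every array. These repeats are included in counts of probe sets, whereas in counts of genes 1 probe set stands for each gene. Neighbours in ID order were the 10 named probe sets on each side, called clear where 80% lay on a single chromosome. Promoter sequences are from RefSeq. Genes named are those at an unadjusted p under 0.05, the 5 with the smallest p in each direction, the 3 with the widest and narrowest range, the 3 that followed the median least, paralogs, and leading genes of the other lists. Rps12, Rps10, Rps9, Rps6, Rpl14, Rpl15, Rpl29 and Rpsa were also chosen after their values were seen. The members and lists were chosen with earlier results of these data known. The 6 samples are separate animals.
Alternatives varied the expression minimum, the Entrez filter, the normalization, the weight of arrays, the probe set that stands for a gene and the mice included.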

Additional observations from a re-analysis of the deposited data

How the results depend on the processing

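The count of ribosomal protein genes higher in EE at an unadjusted p under 0.05, 1 in the main analysis, was 3 with no expression minimum (69 genes, against 1.59% of all probe sets), 5 after quantile normalization of the deposited values (2.21%), 6 with EE mouse 3 rescaled to the other arrays (2.94%), 14 with array weights (10.7%) and 0 with probe sets on the gene's own chromosome only, an alternative chosen after seeing the data that leaves 20 genes. With that last choice the count of lower genes was 0 in place of 1, since Rps28 and Rps3a1 have no such probe set past the minimum. With each mouse left out in turn the count of higher genes ranged from 0 (without EE mouse 1, SE mouse 1 or SE mouse 2) through 1 (without EE mouse 2) and 2 (without SE mouse 3) to 9 (without EE mouse 3), while the share of all probe sets called higher was 1.02%, 2.81%, 0.812%, 1.56%, 0.650% and 6.68% in those fits in that order. In the same fits the count of lower genes was 1 throughout, and the median log2 fold change ranged from 0.07 to 0.16. Over all probe sets, array weights called 10.7% higher and 7.51% lower, and the rescaling of EE mouse 3 raised the share with a positive log2 fold change to 57.5%, with a median of 0.03, against 0.20 for the ribosomal protein genes. With the mouse number as a replicate block, the counts were 1 higher and 1 lower and the median 0.14. Nothing in the sources used here says that the numbers pair mice across enclosures. Deviations of same-numbered mice from their group mean correlated at -0.26, 0.05 and -0.31, and those of other pairs at -0.26 to 0.32. With 3 mice per group such values cannot decide whether the mice were paired. Rps3a1 stayed negative and under an unadjusted p of 0.05 in 17 of 17 alternatives. Rps28 stayed positive in 17 of 17 and under that threshold in 13. For both genes all 17 alternatives read the same probe set as the main analysis, so they do not bear on the gene's other probe set. The small negative log2 fold changes turned positive with array weights for Rpl4 (0.08) and Rps3 (0.06), and with each mouse left out ranged from -0.20 to 0.06 for Rpl6l, -0.24 to 0.07 for Rps25, -0.22 to 0.08 for Rpl4 and -0.18 to 0.09 for Rps3. The causes of these changes were not tested. No adjusted p of a ribosomal protein gene fell under 0.05 in any of these settings.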

Other observations

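Mitochondrial ribosomes are built of other proteins, and their genes were measured apart. Of 18 measured Mrpl and Mrps genes (71 listed), 7 had a positive log2 fold change, the median was -0.06 and 0 were called at an unadjusted p under 0.05 from limma. Mrpl38 and Mrpl40 had log2 fold changes of 0.31 and -0.23 (standard errors 0.14 and 0.13, unadjusted p = 0.0616 and 0.110 from limma). Of 9 measured genes of ribosome rescue and quality control, 1 had a positive log2 fold change, the median was -0.18 and 0 were called. In that list Eif2ak1, the haem-regulated kinase that restrains translation in red cell precursors, averaged 8.13 in EE mice and 8.44 in SE mice, with a log2 fold change of -0.30 and a standard error of 0.15 (limma, unadjusted p = 0.0769).

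A further 57 probe sets list a ribosomal protein gene beside other genes or pseudogenes and are named for none of them here. Of these, 32 passed the minimum, 24 of the 32 had a positive log2 fold change, the median was 0.09 and 0 were called. In EE mice 1 and 2, 15 of the 32 lay above all SE mice, against 21.9% of all probe sets tested. Among the 30 member genes below the minimum, 8 are listed on such a probe set that passed it.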
